A study of Mus musculus with 8 samples.

Results

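Genes of DNA mismatch repair, namely Msh6, Msh3, Mlh3, Pms1, Pms2 and Exo1, were examined for peaks of trimethylated lysine 36 of histone H3 (H3K36me3). They were chosen by name, as 6 of the 21887 protein-coding genes in the RefSeq table of mouse build GRCm38.p6. In KO cells, which are bone marrow stromal cells of Setd2 fl/fl C57BL/6J mice given a Cre lentivirus, peaks covered 2.01% to 7.36% of each gene. In WT cells, the same floxed cells given a GFP lentivirus, they covered 21.1% to 69.9%. Both groups carry the floxed alleles, were at passage 2 and underwent 4 days of puromycin selection (2 µg/ml). KO and WT were each represented by 2 H3K36me3 libraries, beside 1 library of total chromatin (Input) and 1 of a control precipitation (IgG). Nothing in the labels ties the 2 H3K36me3 libraries to separate cultures, so p-values cover only the variation among these libraries, which could be technical.

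Mismatch repair removes base mismatches and small loops that DNA polymerases leave behind. MutS heterodimers find the error, MutL heterodimers are recruited and nick the new strand, an exonuclease removes it, and polymerase and ligase fill the gap. H3K36me3 is written by Setd2 on the bodies of transcribed genes. In human cells the PWWP domain of MSH6 binds this mark, which places the repair factor on chromatin before replication. The peak lists show where the mark lies on the genes, and not the level or the place of the proteins.

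The authors deposited 1 peak list per H3K36me3 library against the Input of its genotype and 1 against its IgG. Lists against Input are used unless IgG is named. The read depth behind them is unknown, and the peaks came from bulk cells, so fewer cells with the mark and less mark per cell cannot be told apart. The lists held 122589 and 159459 peaks in KO and 242745 and 246258 in WT. Mean coverage of a protein-coding gene, the percent of its annotated span under peaks, was 2.92% and 3.72% in KO and 26.3% and 25.5% in WT. Setd2 itself had 0.690% and 1.70% in KO and 66.4% and 60.5% in WT, which does not measure the deletion of its exons. Of 7 stromal markers, 0 in KO and 6 in WT were covered over at least 10% in both libraries, with Thy1 at 0% in WT; the list averaged 2.88% and 1.95% in KO and 47.2% and 45.6% in WT. Of 7 haematopoietic markers the numbers were also 0 in KO and 6 in WT, with averages of 1.34% and 8.30% in KO and 26.9% and 37.9% in WT. Of 3 endothelial markers the number was 0 in both, with averages of 4.73% and 7.60% in KO and 5.92% and 2.36% in WT. The part of other cells in the results was not tested.

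The starts of the genes are shown first, because no library of either genotype had a peak base in the 300 bases around them (250 before and 50 after the start) in any of the 5 genes with an entry in the promoter table, in the lists against Input and against IgG alike. Over 17492 protein-coding genes, 1.92% and 2.29% of these windows touched a peak in KO and 2.71% and 2.70% in WT, so a bare start was the usual state. The 250 bases before the start are printed for Msh6, the gene most covered in WT, and for Pms2, whose mark in WT lay mainly in the first 50% of its span. Sequences are from RefSeq (GRCm38.p6), 5′ to 3′ on the strand of the gene, with GC boxes (GGGCGG) and CCAAT boxes on either strand in capitals. Some GC boxes of Msh6 share a base. For Pms2 the start in the promoter table differs from the edge of the gene span used for coverage, bins and distances. The span begins at 143909901, so the last bases of the stretch, with both GC boxes, lie inside it. The first bases lie in the span of the neighbouring gene Aimp2, which ends at 143909839.
Msh6, chr17:87974800-87975049, plus strand: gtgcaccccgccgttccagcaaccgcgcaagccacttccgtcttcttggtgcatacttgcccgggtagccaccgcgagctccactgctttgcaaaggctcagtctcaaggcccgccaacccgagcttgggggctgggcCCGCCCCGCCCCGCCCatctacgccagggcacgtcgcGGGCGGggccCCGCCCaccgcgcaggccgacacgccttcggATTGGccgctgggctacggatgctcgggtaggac
Pms2, chr5:143909751-143910000, plus strand: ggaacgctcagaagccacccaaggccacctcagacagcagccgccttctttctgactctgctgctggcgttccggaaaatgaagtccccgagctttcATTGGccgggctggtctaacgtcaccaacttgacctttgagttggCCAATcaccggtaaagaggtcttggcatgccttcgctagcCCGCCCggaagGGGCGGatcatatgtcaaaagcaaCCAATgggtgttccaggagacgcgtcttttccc
Msh6 had 5 GC boxes and 1 CCAAT box, and Pms2 had 2 GC boxes and 3 CCAAT boxes. None of the 5 genes held TATAAA on either strand, which 12.4% of all promoters held, beside 42.7% with a GC box and 36.3% with a CCAAT box. The Msh6 stretch held 27 CpG sites, against a median of 10 over all promoters, and 10.2% of promoters held as many. These matches describe letters only.

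The first comparison asked how much of each gene the mark covered without Setd2. Coverage fell in all 6 genes in a limma fit over 10809 protein-coding genes whose coverage averaged 10% or more over the 4 libraries (Benjamini-Hochberg adjusted p under 0.05), although after scaling each library to its mean coverage 0 of the 6 passed as lower and Msh3 passed as higher. In the same fit 92.6% of all tested genes fell and 0.555% rose, so 6 of 6 is close to the background. KO coverage averaged 7.36% or less in each of the 6, so they met the filter only through WT. A fall was thus close to fixed in advance, and the share over all tested genes comes from the same filter. Without the filter all 6 were lower, beside 10701 lower and 492 higher of 18288 genes. Scaling divides each library by its own mean coverage, which takes out the fall shared by the genes. Lower or higher after scaling is therefore relative to that fall and does not mean less or more measured coverage. Among the 10809 genes, 45.2% were lower and 2.41% higher on the scaled values. Stricter fits select genes in the same way. Fewer of the 6 had enough coverage to enter them, and those that did were lower. They were 3 with peaks at or above the median score of their list (94.4% of all genes in that fit lower, 0.181% higher). There were 2 with scores of at least 50 (94.7% lower, 0.152% higher) and 2 with a filter of 25% (98.6% lower, 0.302% higher). The median change was -28.1 percentage points over the 6 genes and -47.7 points over all tested genes; after scaling, these medians were 5.58 and -16.7 points.

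**Figure D1:**
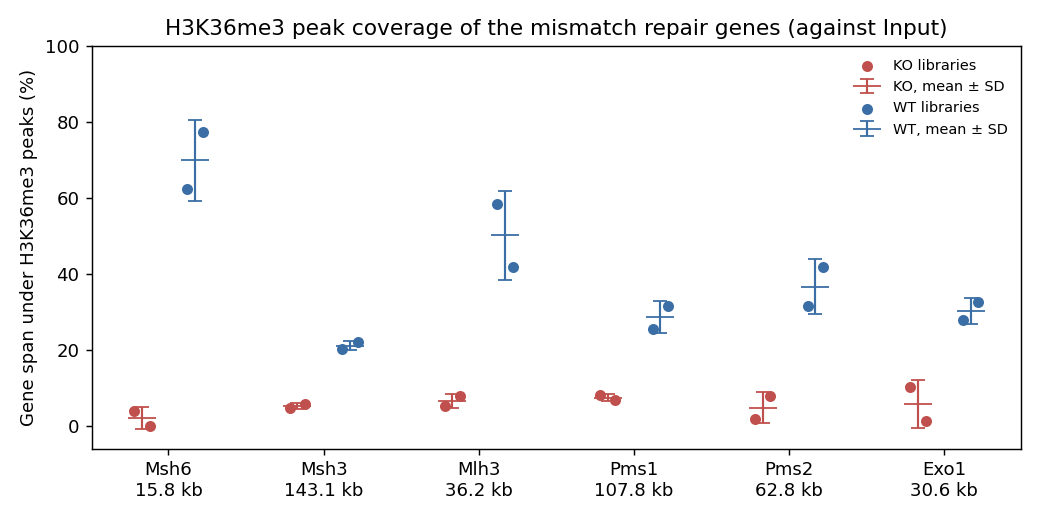
Percent of each gene span under H3K36me3 peaks (vertical axis) for the 6 mismatch repair genes (horizontal axis, with span length in kb). Points are the 2 libraries of each genotype, KO left of WT, and bars give the mean ± SD. Every KO point is at or below 10.3% and every WT point at or above 20.2%. How many of all tested genes separate in this way was not counted.

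Msh6 and Msh3 are the alternative MutS subunits. Msh6 pairs with the common MutS subunit to recognise single mismatches, and Msh3 to recognise larger loops. Msh6 (chromosome 17, 87975050 to 87990892, 15.8 kb) had 4.02% and 0% of its span covered in KO, against 62.4% and 77.4% in WT. Its mean was 2.01% ± 2.84 in KO and 69.9% ± 10.6 in WT (SD, n = 2 each), and the change of -67.9 points (SE 6.09) had a limma adjusted p of 0.00107. No other gene of the 6 changed by as many points. Msh3 (chromosome 13, 92211878 to 92355004, 143.1 kb) had 4.69% and 5.68% in KO and 20.2% and 22.0% in WT. The 4 libraries of Msh3 lay close together within each genotype. They did not overlap between genotypes, which held for every gene of the 6. How many of all tested genes showed no such overlap was not counted. The 92.6% of tested genes that fell in the limma fit is another measure. The change of Msh3 was -15.9 points (SE 2.12, limma adjusted p 0.00318), the smallest of the 6.

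Mlh3, Pms1 and Pms2 encode MutL subunits that pair with the common MutL subunit. Pms2 carries the endonuclease that nicks the strand to be repaired, Mlh3 is best known for meiotic crossovers, and the role of Pms1 in repair is less clear. Mlh3 (chromosome 12, 85234466 to 85270647) had 5.21% and 7.80% in KO and 58.4% and 41.8% in WT, a change of -43.6 points (SE 6.57, limma adjusted p 0.0048). The WT libraries of Mlh3 differed by more than those of any other gene of the 6, yet neither came near the KO libraries. Pms2 (chromosome 5, 143909901 to 143972745) had 1.89% and 7.73% in KO and 31.4% and 41.8% in WT, a change of -31.8 points (SE 4.79, limma adjusted p 0.0048). Pms1 (chromosome 1, 53189187 to 53297031) had 8.04% and 6.68% in KO and 25.6% and 31.6% in WT, a change of -21.2 points (SE 2.96, limma adjusted p 0.0038). Pms1 had the highest mean coverage of the 6 in KO.

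Exo1 (chromosome 1, 175880768 to 175911396), the exonuclease that removes the nicked strand, had 10.3% and 1.38% in KO and 27.8% and 32.6% in WT. Its change of -24.4 points (SE 4.20) had a limma adjusted p of 0.00721. The KO libraries were the least alike for this gene. Leaving out 1 library ended the call of 3 genes, Exo1, Pms2 and Mlh3, and fewer of all tested genes passed in such fits as well. Without WT replicate 1 the change was -26.8 points for Exo1 and -36.9 points for Pms2. Without WT replicate 2 it was -22.0 and -26.6 points, and without KO replicate 1 Mlh3 changed by -42.3 points. Each such fit leaves 1 library in a genotype.

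Ordered by WT coverage, the genes ran Msh6, Mlh3, Pms2, Exo1, Pms1 and Msh3. The libraries of Pms2 and Exo1 overlapped, as did those of Exo1 and Pms1, so these neighbours in the order are not told apart. Mlh3 and Pms2 were separated by under 1 point between their nearest libraries. In KO every gene overlapped with the next in the order Pms1, Mlh3, Exo1, Msh3, Pms2 and Msh6. Among all protein-coding genes, 9.37% had a WT mean as high as that of Msh6 and 45.2% one as high as that of Msh3. In KO, 9.62% of genes had a mean as high as that of Pms1 and 52.1% one as high as that of Msh6.

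The order in percent is not the order in bases. Msh3 had 6.72 and 8.13 kb under peaks in KO and 29.0 and 31.5 kb in WT, whereas Msh6 had 0.637 and 0 kb in KO and 9.89 and 12.3 kb in WT. In WT the longest genes had a lower share covered in the genome as well. The median gene of 10 to 20 kb had 2.36% in KO and 33.4% in WT, and the median gene of 100 to 200 kb had 3.11% in KO and 18.1% in WT. Against these medians, Msh6 stood higher in WT for its length class, and Msh3 and Pms1 were above theirs in both genotypes.

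The ratio of KO to WT coverage sets the loss against the level in WT. It was 0.0288 for Msh6, 0.130 for Mlh3, 0.131 for Pms2, 0.193 for Exo1, 0.245 for Msh3 and 0.258 for Pms1. For 3 genes the ratio rested on which KO library was used: without KO replicate 1 it was 0 for Msh6, 0.211 for Pms2 and 0.0458 for Exo1, and without KO replicate 2 it was 0.0575 for Msh6, 0.0516 for Pms2 and 0.340 for Exo1. The ratios of Msh3, Mlh3 and Pms1 moved by less than 1.5 times when any 1 library was left out. The median was 0.162 over the 6 genes and 0.0480 over all tested genes, which is a description of these lists and is not matched for length. The median gene of 100 to 200 kb, the length class of Msh3 and Pms1, had 3.11% in KO and 18.1% in WT. At 10 to 20 kb it had 2.36% in KO and 33.4% in WT. By these medians, longer genes had more coverage in KO for their WT level. The part of length in the ratios was not tested. With all 4 libraries, of the tested genes, 35.8% had a ratio as low as that of Msh6, and 80.4% to 91.3% one as low as those of the other 5. Without KO replicate 1 this share was 47.2% for Exo1, without KO replicate 2 it was 58.8% for Pms2 and 61.6% for Msh6, and with each of the 4 libraries left out in turn it stayed between 76.6% and 92.8% for Msh3, Mlh3 and Pms1. The scaled values are relative to the mean of each library. On them Msh3 had 22.9 in KO and 11.9 in WT (limma adjusted p 0.0201), where measured coverage was 5.19% in KO and 21.1% in WT. Msh6 had 10.1 in KO and 39.5 in WT on the scaled values (limma adjusted p 0.0798), where measured coverage was 2.01% in KO and 69.9% in WT.

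The 6 genes had fewer peaks in KO, and none as wide as the widest in WT. They together span 396.5 kb and held 36 and 39 peaks in KO and 132 and 158 in WT. The widest was 1418 and 1337 bp in KO and 3802 and 6386 bp in WT, and peaks over 2 kb numbered 0 and 0 in KO and 6 and 2 in WT. The 6 and 2 were 4.55% and 1.27% of the WT peaks in these genes, while such peaks made up 8.61% and 7.57% of the whole WT lists. Median width differed less, at 589.5 and 561 bp in KO and 666.5 and 669.5 bp in WT. For each gene, both the number of peaks and the widest peak gave p = 0.33 in an exact permutation test (two-sided), the smallest that 2 libraries against 2 allow. The authors' score of a peak is their own value on an unstated scale, and its median over the peaks of the 6 genes was 47.1 and 32.7 in KO and 34.2 and 33.1 in WT, beside 44.3 and 35.2 in KO and 35.7 and 36.7 in WT over the whole lists.

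Msh6 carried part of its mark in WT in wide peaks, of which 2 and 1 were over 2 kb. It had 1 and 0 peaks in KO and 7 and 8 in WT. Its widest was 637 bp in the KO library with a peak, and 3468 and 5609 bp in WT. The WT peak of 5609 bp ran from 10.1 to 15.7 kb after the start, and 0.458% of the peaks in that list were as wide. The WT peak of 3468 bp, in replicate 1, ran from 8.67 to 12.1 kb and had a score of 634, which 0.501% of that list reached. This rank did not hold against IgG. There the top score of Msh6 in WT replicate 1 was 64.35, which 12.3% of the list reached, in another peak from 13.4 to 16.5 kb. Pms2 had 2 and 7 peaks in KO and 19 and 29 in WT, with a widest of 595 and 950 bp in KO and 2909 and 6386 bp in WT. The widest WT peak of Pms2, from 14.2 to 20.6 kb, was the widest over the 6 genes. Mlh3 had 3 and 4 peaks in KO and 14 and 15 in WT, the widest being 805 and 1337 bp in KO and 3802 and 1979 bp in WT.

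In Msh3 and Pms1, with spans of 143.1 and 107.8 kb, the mark lay in many narrow peaks in both genotypes. Per 10 kb of span their peaks were not more numerous than those of Msh6 in WT. Msh6 had 0.631 and 0 in KO and 4.42 and 5.05 in WT. Msh3 had 0.699 and 0.978 in KO and 2.79 and 3.07 in WT, and Pms1 1.39 and 1.21 in KO and 3.62 and 4.45 in WT. Median width in WT was 605.5 and 607.5 bp in Msh3 and 662 and 639 bp in Pms1, beside 549 and 703.5 bp in Exo1. Msh3 had 10 and 14 peaks in KO and 40 and 44 in WT, the widest 1418 and 1063 bp in KO and 1734 and 1653 bp in WT. Pms1 had 15 and 13 in KO and 39 and 48 in WT, the widest 899 and 790 bp in KO and 1300 and 1352 bp in WT. Neither gene had a peak over 2 kb in any library, which held for Exo1 as well. Exo1 had 5 and 1 peaks in KO and 13 and 14 in WT, the widest 835 and 424 bp in KO and 1801 and 1132 bp in WT. With gaps of up to 1 kb closed, Msh6 had 1 and 0 in KO and 2 and 1 in WT.

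**Figure D2:**
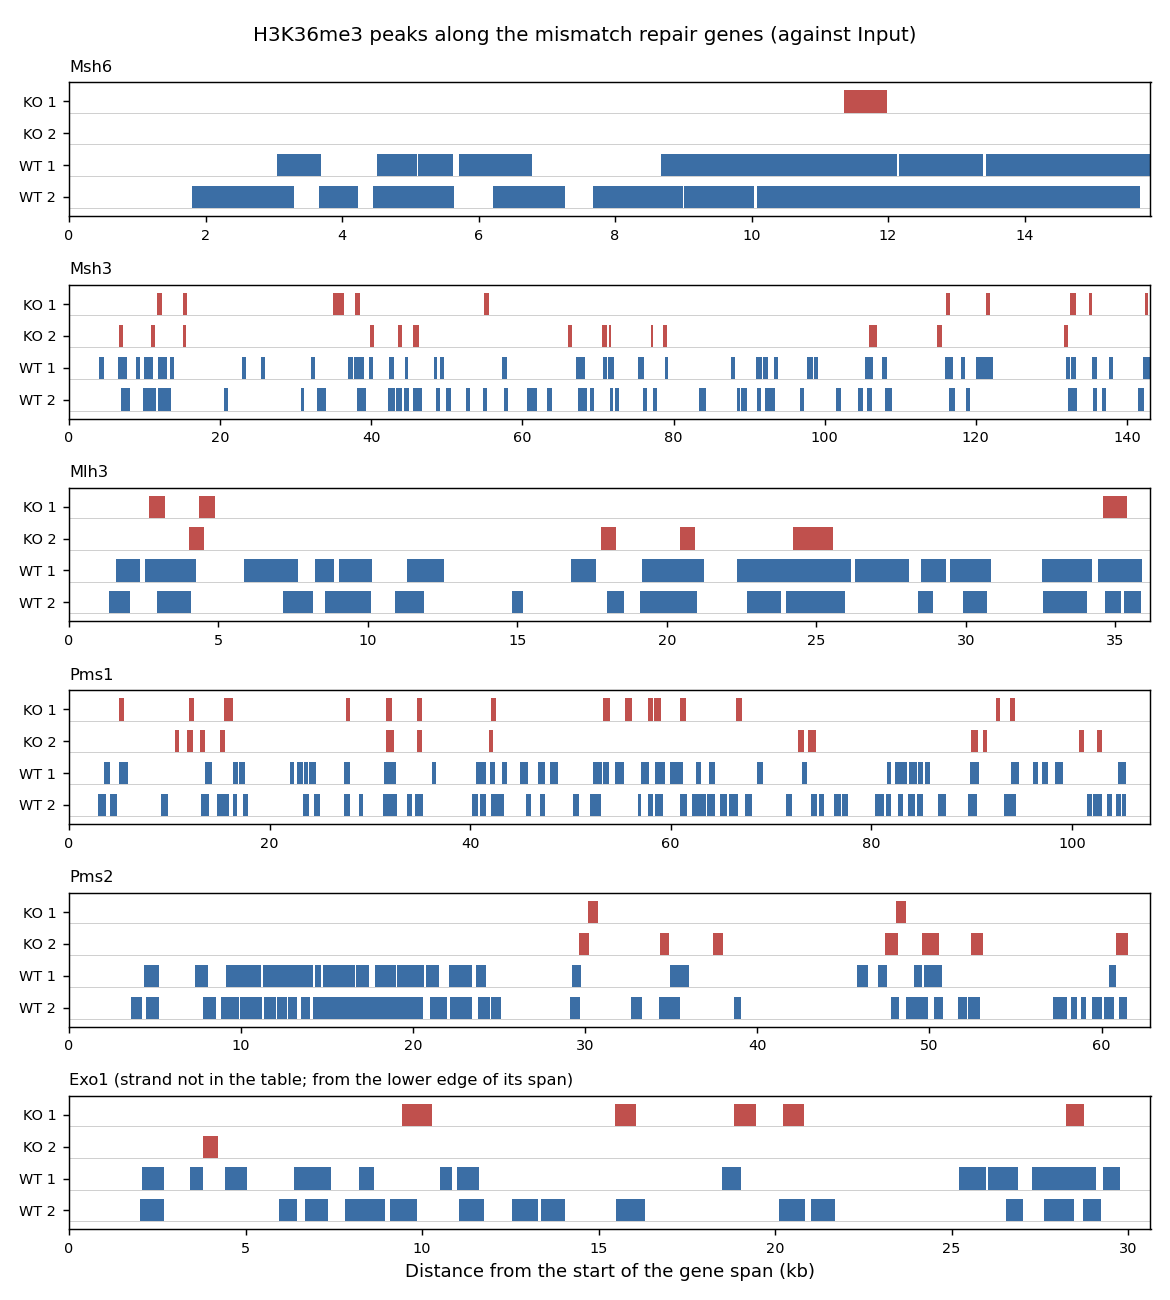
Peaks called against Input along each gene, with distance from the start of the span in kb on the horizontal axis and 1 row per library (KO red, WT blue). In WT, Msh6 is filled towards its 3′ end and Pms2 between about 4 and 25 kb, while Msh3 and Pms1 show scattered peaks; no peak touches the start of a gene with a known strand.

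Each gene was next divided into 10 equal bins from its 5′ to its 3′ end. Over 11080 stranded genes of at least 10 kb, mean coverage in the first bin was 1.45% and 1.86% in KO and 7.88% and 7.53% in WT, and in the last bin 3.49% and 4.29% in KO and 43.2% and 41.7% in WT. The usual WT profile therefore climbs towards the 3′ end. Msh6 climbed steeply. Its first bin was at 0% in all 4 libraries. Its last 4 bins had 0% to 40.2% in KO, where the one value above 0% came from the single KO peak, and 90.03% to 100% in WT. In the last 50% of its span it had 8.04% and 0% in KO and 89.5% and 97.3% in WT, beside 0% and 0% in KO and 35.2% and 57.4% in WT in the first 50%.

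Pms2 ran the other way. In the first 50% of its span it had 1.89% and 1.87% in KO and 49.4% and 55.4% in WT, and in the last 50% it had 1.88% and 13.6% in KO and 13.5% and 28.1% in WT. Its bin 3 was at 0% and 0% in KO and 90.3% and 93.1% in WT, and its bin 5 at 9.47% and 9.36% in KO and 8.24% and 9.52% in WT. The drop between bins 4 and 5 was seen in both WT libraries. Of the 17 RefSeq transcripts listed for Pms2, 1 is curated and 16 are predicted, and the table does not say which of them reaches the far end of the span. All KO peaks of Pms2 lay more than 29 kb after the start, in the stretch where the widest WT peaks were 1125 and 1282 bp.

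Mlh3 had more coverage in its last 50% in WT, with 4.45% and 11.3% in KO and 71.9% and 51.9% in WT, beside 5.98% and 4.34% in KO and 45.0% and 31.7% in WT in the first 50%. Msh3 and Pms1 differed less between the 2 parts of the span, although their single bins ranged from 3.53% to 37.5% in WT for Msh3 and from 10.3% to 47.9% for Pms1. Msh3 had 5.43% and 6.63% in KO and 19.97% and 24.8% in WT in its first 50%, and 3.96% and 4.73% in KO and 20.5% and 19.2% in WT in its last 50%. Pms1 had 8.63% and 6.69% in KO and 25.01% and 28.6% in WT in its first 50%, and 7.46% and 6.68% in KO and 26.2% and 34.7% in WT in its last 50%. The strand of Exo1 is not in the table used here. Counted from its lower coordinate, Exo1 had 5.45% and 2.77% in KO and 26.5% and 38.6% in WT in the first 50%, and 15.1% and 0% in KO and 29.2% and 26.6% in WT in the last, so the WT libraries differed in direction. Seen from the start, the nearest peak inside the gene began 11.3 kb away in the KO library of Msh6 with a peak, and 3.05 and 1.80 kb away in WT. In WT this distance was 1.34 to 6.90 kb over the 5 stranded genes.

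**Figure D3:**
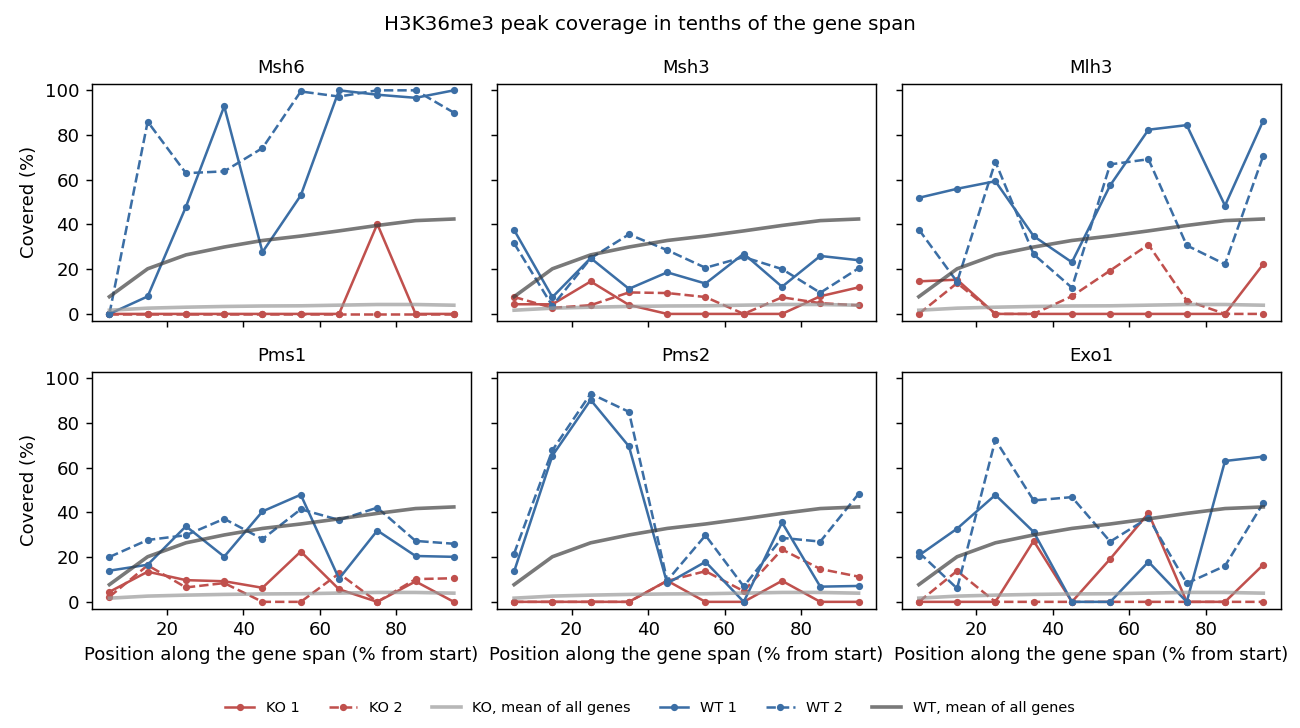
Percent covered (vertical axis) in 10 equal bins along each gene span (horizontal axis, percent from the start; for Exo1 from the lower edge). Red lines are the KO libraries, blue lines the WT libraries, and grey lines the mean over 11080 stranded genes of at least 10 kb; Pms2 is highest in bins 2 to 4 in WT, whereas the mean over all genes climbs to the 3′ end.

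The lists were then compared base by base. Within the 6 genes, bases covered in both libraries made up 5.74% of those covered in either library in KO and 36.3% in WT. Over all tested genes these shares were 6.05% in KO and 54.3% in WT. The WT libraries thus overlapped less in the pooled bases of the 6 genes, and no test was made of this. The lower share did not hold for each gene. In WT it was 66.2% in Msh6, 54.4% in Mlh3 and 52.8% in Pms2, but 26.6% in Exo1, 25.1% in Pms1 and 23.6% in Msh3. In KO it ranged from 0% in Msh6 to 12.3% in Pms1. Of the bases covered in both WT libraries, a KO peak lay on 7.22% in Msh6, 3.82% in Pms2, 6.37% in Exo1, 21.8% in Mlh3, 24.7% in Msh3 and 28.2% in Pms1. No share over all tested genes is given for this measure. The share of KO peak bases that lay under a WT peak can be set beside the share of the span that WT peaks covered. In Msh3, 61.9% of the bases under a KO peak were also under a WT peak, while WT peaks covered 34.2% of the span. In Pms1 these shares were 64.0% and 45.7%, in Exo1 63.5% and 47.7%, in Pms2 55.9% and 47.9%, and in Mlh3 81.1% and 64.9%. Over all tested genes they were 73.5% and 57.2%. The single KO peak of Msh6 lay wholly on bases covered in both WT libraries.

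KO peaks seen in both libraries were rare. A peak of KO replicate 1 touched one of KO replicate 2 at 5 places in Pms1, 2 in Pms2, 1 in Msh3 and 1 in Mlh3, and at 0 in Msh6 and Exo1. Both KO libraries covered 1744 bases of Pms1, of which 1307 were under a WT peak as well. In Msh3 both KO libraries covered 388 bases, of which 0 were under a WT peak.

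Lists called against IgG served as a partial check, because some marker genes well covered against Input had no peak in them. In WT, the stromal marker Vim had 82.2% and 92.2% against Input and 0% and 0% against IgG. Col1a1 and the haematopoietic marker Lyz2 were also at 0% in both WT libraries against IgG, and Col1a2 at 2.59% and 8.63%. Prrx1, Pdgfra and Eng kept 18.9% to 37.9% in WT, and Cd68 was unchanged. The reason was not tested. All 6 genes passed as lower against IgG, beside 91.4% of 9635 tested genes (0.218% higher). Msh6 had 4.02% and 0% in KO and 58.7% and 77.4% in WT, and Mlh3 had 5.21% and 8.37% in KO and 53.9% and 36.1% in WT. Msh3 had 3.88% and 4.10% in KO and 18.6% and 19.2% in WT, and Pms1 had 6.18% and 3.90% in KO and 19.1% and 24.4% in WT. For Msh6, Mlh3 and Msh3 each value was within 1.5 times that against Input, whereas for Pms1 the value of KO replicate 2 was 6.68% against Input. The change was larger against IgG for Pms2, with 0% and 1.89% in KO and 34.2% and 42.8% in WT. Exo1 had 7.55% and 1.38% in KO and 26.5% and 30.5% in WT. The drop along Pms2 was also present against IgG, where WT coverage of the first 50% exceeded that of the last by 41.8 and 29.3 points, beside 35.96 and 27.3 points against Input. For Pms1 the small WT difference between the ends changed sign, from -3.64 points against Input to 5.24 points against IgG.

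Genes next to the 6 showed how far each pattern reached. Ormdl1, a regulator of sphingolipid synthesis that starts 63 bp from Pms1 on the other strand, had 0% and 3.90% in KO and 38.4% and 43.6% in WT (limma adjusted p 0.000729). Aimp2, a scaffold of the tRNA synthetase complex that starts 61 bp from Pms2 on the other strand, had 0% and 8.002% in KO and 42.4% and 52.5% in WT (limma adjusted p 0.00239). The call of Aimp2 was lost without WT replicate 1 (limma adjusted p 0.0695) and without WT replicate 2 (0.0877), and against IgG its mean was 4.00% in KO and 25.6% in WT, beside 4.00% in KO and 47.5% in WT against Input. Both head-to-head pairs thus carried the mark on either side of a shared start without peaks in WT. Fbxo11, a ubiquitin ligase subunit whose span overlaps the 3′ end of Msh6 by 34 bp, had 0.755% and 2.22% in KO and 31.8% and 28.9% in WT (limma adjusted p 0.000720). In WT replicate 1 the last peak of Msh6 ran to 16.5 kb after its start, across the end of the gene and into Fbxo11.

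Eif2b2, a translation initiation factor subunit 7837 bp from the 3′ end of Mlh3, had 0% and 0% in KO and 81.2% and 64.2% in WT. Acyp1, an acylphosphatase on the other side of Mlh3, had 0% and 4.54% in KO and 19.7% and 20.3% in WT. LOC115486439, next to Pms2, had 0% and 0% in KO and 30.2% and 49.8% in WT. All 3 fell in the same fit, though Acyp1 lost its call without either WT library and LOC115486439 without either KO library. Another 5 neighbours had little coverage in either genotype. The potassium channel gene Kcnk12 had 7.19% and 6.64% in KO and 0% and 4.59% in WT, and Rasgrf2, a Ras exchange factor, had 3.67% and 4.71% in KO and 0.524% and 1.85% in WT. Wdr64 had 2.46% and 1.43% in KO and 0.947% and 0% in WT, and 1700019A02Rik had 3.49% and 2.48% in KO and 6.93% and 3.54% in WT. Becn2, of 1.90 kb, had 16.03% and 0% in KO and 0% in both WT libraries. These 5 were all below the coverage filter; they include the neighbours on both sides of Exo1 and on one side of Msh6, Msh3 and Pms1. After scaling, Acyp1, Aimp2 and Ormdl1 no longer passed as lower.

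Another 19 genes were listed as accessory genes for comparison. They include the sliding clamp and its loader, RPA, DNA polymerase delta and the ligase, which serve the later steps of repair. The rest are other DNA-binding and end-processing factors, and the meiotic MutS genes Msh4 and Msh5. Of the 19, 15 passed the coverage filter and all 15 fell, with 7 still lower after scaling, among them Pcna, Lig1 and Hmgb1 but not Rpa2 or Rfc3. Both counts are near the shares over all tested genes, 92.6% lower before scaling and 45.2% after it. The median change of the 15 was -51.6 points, near the -47.7 points of all tested genes. Pcna, the sliding clamp, had 0% and 0% in KO and 58.9% and 40.5% in WT (limma adjusted p 0.00412). The largest falls were in Rpa2, a subunit of the single-strand binding protein, with 0% and 4.97% in KO and 73.4% and 63.8% in WT, and in Rfc3, a clamp loader subunit, with 9.34% and 7.04% in KO and 79.6% and 65.2% in WT. Rfc3 did not pass against IgG, where its mean was 8.19% in KO and 26.2% in WT (limma adjusted p 0.0800). The smallest falls among tested genes were in the ligase gene Lig1, with 0% and 1.69% in KO and 40.8% and 38.7% in WT, and in Hmgb1, a chromatin protein, with 0% and 0% in KO and 33.5% and 45.5% in WT. Msh4 had 1.19% and 6.12% in KO and 9.51% and 15.5% in WT, and Msh5 had 0% and 0% in KO and 0% and 1.95% in WT. These meiotic genes were below the filter, as were Rpa3 and Pold4.

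**Figure D4:**
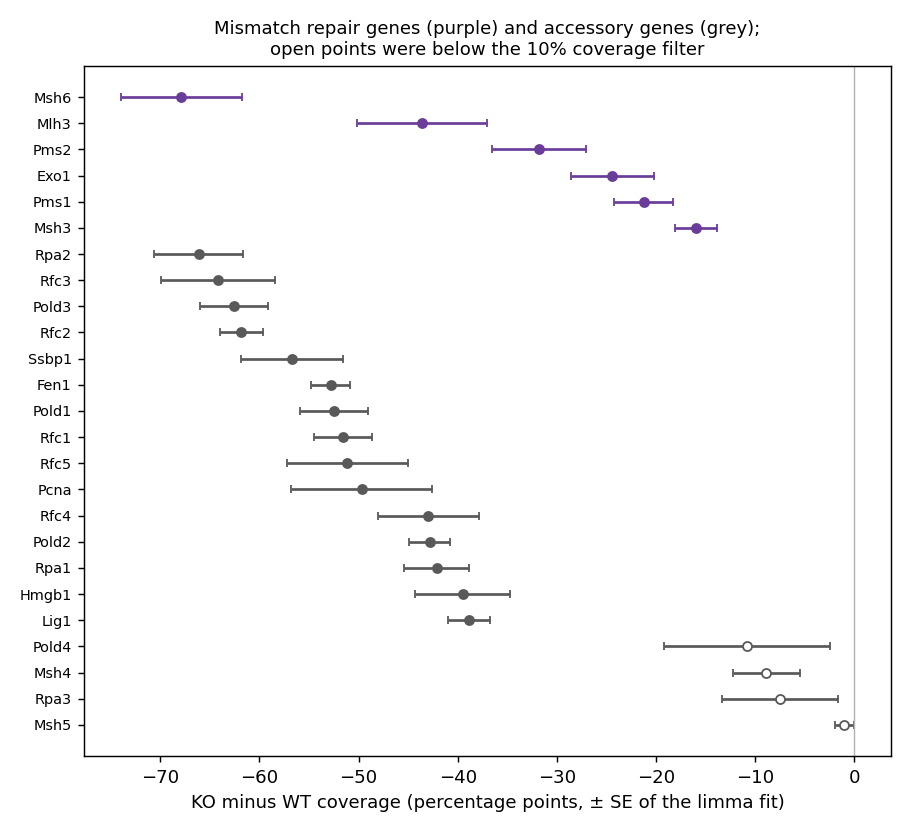
Change in peak coverage, KO minus WT, in percentage points (horizontal axis) with the SE of the limma fit, for the 6 mismatch repair genes (purple) and 19 accessory genes (grey), listed down the page. Msh6, at -67.9 points, lies beside the largest accessory changes, while Msh3, Pms1, Exo1 and Pms2, at -15.9, -21.2, -24.4 and -31.8 points, changed by less than every accessory gene that passed the filter; after scaling to mean coverage, Msh3, Pms1, Exo1 and Mlh3 have positive changes.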

How the data were processed

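Cells were fixed for 10 min in 1% formaldehyde before chromatin immunoprecipitation, per the labels' protocols. The submitters' processing notes name Bowtie2 and GRCm38. The authors deposited 8 peak lists; per the labels, each sets 1 library against the Input or IgG library of its genotype, so both replicates share a control. The deposited score of each peak is at least 13.01; peak names start with MACS, while the scale of the score, the caller's version and its settings were not given in the sources used here. Read counts are absent from the lists, so depth and its precision are unknown, although depth affects how many peaks are found and how wide they are.

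RefSeq gene spans of GRCm38.p6 (1-based) on the autosomes, X and Y were intersected with the peaks, counting any overlap of at least 1 bp. Strand came from the promoter table and is missing for Exo1. KO coverage was set against WT coverage in limma 3.58.1 (R 4.3.3, statmod 1.5.0), using trended, robust eBayes moderation. The fit took genes averaging 10% or more across the 4 libraries; p-values were adjusted over all of these by Benjamini-Hochberg, and 0.05 was the threshold. Genes below this filter have values and no call. This fit was first run on simulated data with the means and spread of the WT libraries, in which only a small part of the genes was lowered. In the real lists most tested genes fell and KO coverage was near 0%, so that run cannot vouch for the calls here. Summaries used Python 3.11.15, numpy 2.4.6 and pandas 2.3.3, and figures matplotlib 3.10.9. Groups came from sample titles. Alternatives were the IgG lists, score minimums, other filters, scaling, other limma options, a replicate block, joined peaks and leaving out each library. The genes, lists and tests were chosen with earlier results of these data known. The genes named are the 6, their nearest protein-coding neighbours, Setd2, Pcna, Msh4, Msh5 and the accessory genes with the 2 largest and 2 smallest falls. Rpa3, Pold4 and the single marker genes were named after their values were seen. One gene that this rule names is not reported here.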

Additional observations from a re-analysis of the deposited data

How the results depend on the processing

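Scaling each library to its mean coverage changed the calls most: the change became -29.4 points for Msh6 and -0.788 for Pms2, neither past the threshold, and turned positive at 10.98 for Msh3, 0.178 for Mlh3, 17.1 for Pms1 and 11.4 for Exo1, of which Msh3 passed. The number lower was then 0 of the 6 genes, 7 accessory genes and 4890 of all genes (10013 without scaling). With peaks at or above the median score of their list 3 of the 6 were tested and fell, with scores of at least 50 there were 2, and with a filter of 25% there were 2, beside 5883 genes in all; the rest of the 6 had too little coverage to enter these fits. The 60 genes higher in KO became 12 to 492 over the alternatives. Joining peaks within 1 kb moved the difference in the number of peaks over the 6 genes to -35 from -107.5. The WT difference between the ends of Pms1 became 5.24 points against IgG, an alternative chosen after seeing the data, as was leaving out each library in the ratios of KO to WT coverage. Leaving out 1 library at a time gave -51.9 to -35.3 points for Mlh3, -36.9 to -26.6 for Pms2 and -28.8 to -19.95 for Exo1, and a fit with 1 library in a genotype assumes that it varies like the other genotype. Scaling takes out the fall shared by the genes by its construction, and some fits had fewer genes or samples. Apart from these, the cause of the shifts was not tested. Replicate numbers are shared by the genotypes, but same-numbered libraries did not deviate together (correlation -0.00334 over 10809 genes, each genotype having a single pair of libraries); with the replicate number as a block all 6 genes and 9993 of all genes were lower. Unknown depth limits every value: where no peak was called, the lists do not bound how much signal there was.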
